A study of Mus musculus with 6 samples.

Results

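The costimulatory members of the tumour necrosis factor (TNF) receptor superfamily were examined as 8 genes, Tnfrsf4, Tnfrsf8, Tnfrsf9, Tnfrsf14, Tnfrsf18, Tnfrsf25, Tnfrsf26 and Cd27, taken by symbol from the 32377 gene identifiers of a mouse RNA-seq count table. All 8 were in the table and all 8 passed the filter on low counts. The comparison was between 3 libraries labelled TNFR2-deficient and 3 labelled TNFR2 positive, all labelled as regulatory T (Treg) cells, and it asks how transcripts differ between libraries so labelled without and with TNFR2. Marker genes, given below, go against the Treg label in the TNFR2-deficient libraries. In both groups B cell markers summed to more than pan T cell markers in every library. The groups are therefore named here by their TNFR2 label only. TNFR2 is a TNF receptor encoded by Tnfrsf1b. The labels give no strain, age, tissue, sorting gate, treatment or means of the deficiency, and do not say whether libraries came from separate animals, so the p-values reflect library-to-library spread that may be technical only.

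Receptors of this family are membrane proteins that bind trimeric ligands of the TNF superfamily on neighbouring cells. Most of the receptors considered here pass the signal to TRAF adaptor proteins, which switch on the canonical and alternative NF-kB pathways and favour the survival and division of T cells after antigen contact. GITR (Tnfrsf18), OX40 (Tnfrsf4) and 4-1BB (Tnfrsf9) are abundant on Treg cells and on activated T cells, DR3 (Tnfrsf25) can expand Treg cells when it is engaged, and CD27 is already present on naive T cells and thymocytes.

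Total counts ran from 19296082 to 24038118 a library. The labelled cell type was checked against marker genes. Summed over 11 Treg markers, levels were 79.6 to 89.0 CPM (counts scaled to the TMM-adjusted library size) per kb of exon in the TNFR2-deficient libraries and 214.7 to 220.5 in the TNFR2-positive ones, with Foxp3 at 1.34 to 1.53 against 73.0 to 76.9 CPM. Capg, the marker not called (log2 fold change 0.16, edgeR adjusted p = 0.0658), made up 72.7 to 81.6 against 61.4 to 71.0 CPM per kb of these sums, and the other 10 markers came to 6.83 to 7.37 against 145.2 to 153.3, a split made after the values were seen. Summed levels of 9 pan T cell markers were 858.3 to 916.4 against 471.5 to 494.6 CPM per kb, those of 12 markers of double-positive thymocytes 1106 to 1122 against 142.2 to 149.5, and those of 8 B cell markers 3149 to 3396 against 2112 to 2303. B cell markers thus summed to more than pan T cell markers in each of the 6 libraries. Summed NK and cytotoxic markers were at 46.5 to 48.4 against 121.8 to 127.6 CPM per kb, myeloid and dendritic markers at 743.9 to 812.6 against 454.8 to 521.9, and erythroid and platelet markers, mostly globins, at 24228 to 27660 against 5687 to 9437. By gene, 10 of 11 tested Treg markers were called lower and 0 higher, 7 of 9 pan T cell markers higher and 1 lower, all 12 thymocyte markers higher, and 4 of 8 B cell markers higher and 2 lower. All 8 NK and cytotoxic markers were called lower, 6 of 11 myeloid markers higher and 2 lower, and all 9 erythroid and platelet markers higher. Among all tested genes 34.2% were called lower and 35.1% higher. Rag1, the recombinase gene of developing lymphocytes, was at 917.9 ± 72.7 CPM in the TNFR2-deficient group and 3.31 ± 0.0785 in the TNFR2-positive group. Rag2 and Ptcra, from the same list as Rag1, were at 0.193 and 0.0171 CPM in the TNFR2-positive group. They were at 58.2 and 5.69 CPM in the TNFR2-deficient group. The part of these cell markers in the results on the receptors was not tested, and in such bulk RNA fewer cells of a type and less RNA per cell cannot be told apart. TNFR2-positive library 1 stood apart from libraries 2 and 3 of its group (chi-square per gene, over genes with at least 10 counts in the pair, 13.9 and 18.5, against 2.45 between those), so values without it are given beside the results that it moves.

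The promoters of the receptor genes are shown first. Of the 8 genes 7 fell and Cd27 rose, where 34.2% of all tested genes were called lower and 35.1% higher. The part of the promoters in these changes was not tested. Of the 8 genes 7 had promoters in the RefSeq table used (build GRCm38.p6), 9 windows in all, each of the 250 bases before a transcription start. Tnfrsf26 had none. In GENCODE M21, 4 of the 9 windows hold bases annotated as UTR, namely 158 in Tnfrsf18, 125 in Tnfrsf14, 81 in the Tnfrsf9 window with matches and, in Tnfrsf4, 166 of the neighbouring gene Sdf4. The window of Tnfrsf25 that held matches to 2 motifs, and the window of Cd27, the gene that rose, are printed 5′ to 3′ with matches in capitals.
Tnfrsf25 (chr4:152116093-152116342, plus strand): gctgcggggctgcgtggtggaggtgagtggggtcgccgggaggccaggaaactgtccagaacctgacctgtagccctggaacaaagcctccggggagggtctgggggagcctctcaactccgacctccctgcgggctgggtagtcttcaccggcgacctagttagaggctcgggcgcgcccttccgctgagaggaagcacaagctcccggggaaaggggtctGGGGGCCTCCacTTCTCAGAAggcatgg
Cd27 (chr6:125237028-125237277, minus strand): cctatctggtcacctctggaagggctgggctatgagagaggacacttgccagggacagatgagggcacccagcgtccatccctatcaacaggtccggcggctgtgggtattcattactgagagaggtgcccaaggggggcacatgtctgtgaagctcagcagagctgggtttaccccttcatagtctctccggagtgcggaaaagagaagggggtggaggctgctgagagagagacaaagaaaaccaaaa
The capitals in Tnfrsf25 mark a match to the kappaB consensus, the motif of NF-kB, 28 to 19 bases before the start, and a match to TTCNNNGAA, the motif of STAT factors that act below cytokine receptors, 16 to 8 bases before it. The Cd27 window held no match to either, and nor did the windows of Tnfrsf4 and Tnfrsf14, genes that fell. For the other matches, 29 bases around the match are shown.
Tnfrsf9 kappaB (chr4:150927947-150927975, plus strand): agagcagctGGGGATTTCCCaggaggccc
Tnfrsf8 kappaB (chr4:145315313-145315341, minus strand): caaaacgcaGGGGAGCCCCCtgcgtgcgt
Tnfrsf18 TTCNNNGAA (chr4:156026213-156026241, plus strand): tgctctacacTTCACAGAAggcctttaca
Tnfrsf1b TTCNNNGAA (chr4:145247033-145247061, minus strand): agcgcattcaTTCCCGGAAgagatgctgg
The Tnfrsf9 kappaB match and the Tnfrsf18 match lie wholly within annotated UTR of these genes, and the other matches shown do not touch it. In the same Tnfrsf9 window TTCNNNGAA also matched 136 to 128 bases before the start. The motifs and the windows printed were chosen after the values of the genes, and for the windows also the matches, had been seen. Each motif was searched on both strands, and overlapping kappaB matches in Tnfrsf8 and Tnfrsf9 are joined in the capitals. The kappaB consensus was in the windows of 3 of the 7 genes (Tnfrsf8, Tnfrsf9 and Tnfrsf25) and in 7.25% of all 32851 windows of that length, and TTCNNNGAA was in those of 3 of the 7 (Tnfrsf9, Tnfrsf18 and Tnfrsf25) and in 7.02% of all. GTAAACA, a forkhead motif, was in none of the 7 and in 3.17% of all windows. TGTGGT, a RUNX motif, was in 1 of the 7 (Tnfrsf25) and 14.0% of all, and GGGCGG, a GC box, was in 2 of the 7 (Tnfrsf8 and Tnfrsf9) and 32.7% of all. Tnfrsf9 and Tnfrsf25 have 2 windows each, so they had more sequence to match. The percentages over all are by window. Counted in that way, kappaB and TTCNNNGAA were each in 3 of the 9 windows of the receptor genes. TGTGGT was in 1 of the 9, GGGCGG in 2 and GTAAACA in 0.

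The level of 7 of the 8 receptor genes was lower in the TNFR2-deficient libraries and that of Cd27 was higher, at an adjusted p-value below 0.05 (edgeR's quasi-likelihood test with Benjamini-Hochberg adjustment over 17022 genes). Of all tested genes 34.2% were called lower, 35.1% higher and 69.3% in either direction, so a call by itself was common. The fall was at least 2-fold for 5 of the 8, Tnfrsf18, Tnfrsf9, Tnfrsf25, Tnfrsf4 and Tnfrsf14, where 13.5% of all tested genes were called and fell by as much. The median log2 fold change (TNFR2-deficient over TNFR2-positive, as for all fold changes here) was -2.10 over the 8 genes and 0.04 over all tested genes. The groups did not overlap in CPM for any of the 8 genes, which held for 74.5% of all genes tested, and the 7 lower ones compare with 36.3% of all that were lower without overlap.

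**Figure D1:**
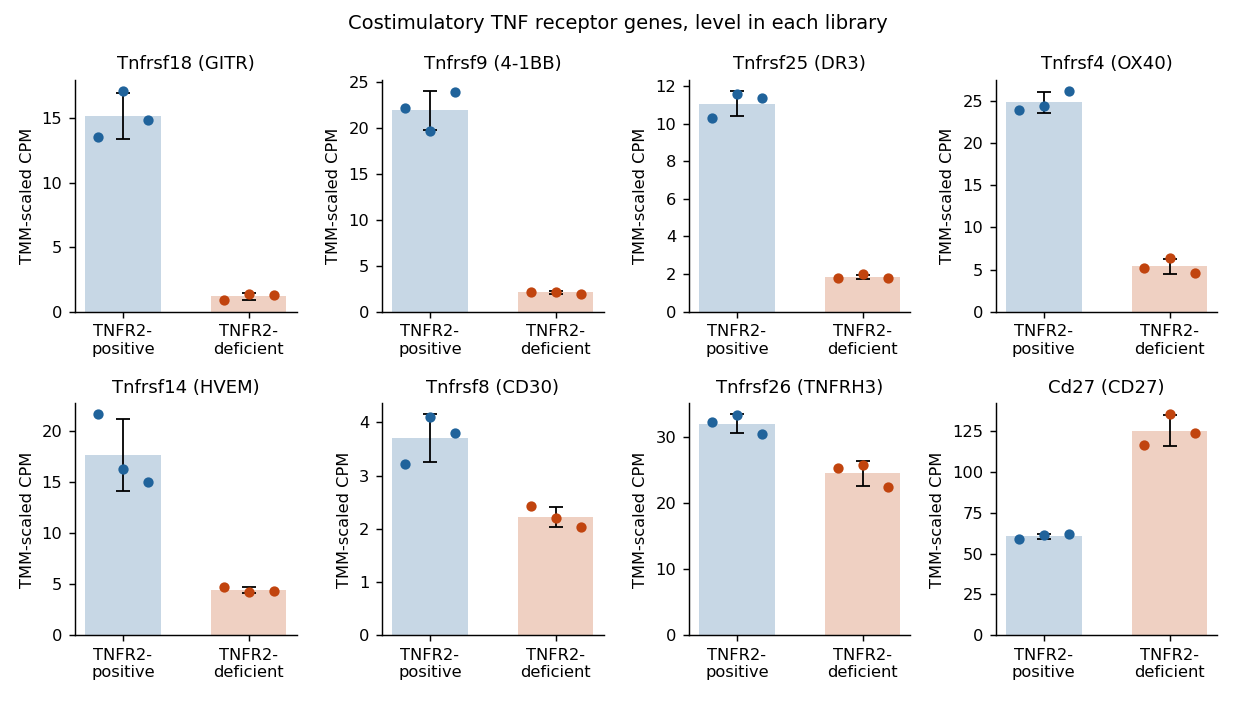
TMM-scaled CPM of each receptor gene (vertical axes, each starting at 0) in the 3 TNFR2-positive (blue) and 3 TNFR2-deficient (red) libraries; points are libraries in the order 1 to 3, bars are means and error bars SD. The genes are ordered from Tnfrsf18, which fell most, to Cd27, the gene that was higher in the TNFR2-deficient libraries, and the points of the groups do not overlap in any panel.

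Tnfrsf18 (ENSMUSG00000041954) encodes GITR, a costimulatory receptor abundant on Treg cells. Libraries 1 to 3 of the TNFR2-deficient group held 0.908, 1.35 and 1.29 CPM, and libraries 1 to 3 of the TNFR2-positive group 13.6, 17.1 and 14.9 CPM (the same order is used below). All 3 TNFR2-deficient libraries were low, the group holding 82 reads against 970. The fall was 12.8-fold (log2 fold change -3.68, SE 0.164, edgeR adjusted p = 5.61e-09), and 1.85% of all tested genes fell by as much or more. In the GENCODE M21 annotation 414 of its 1524 exonic bases are shared with the antisense gene Gm16008, whose reads cannot be told from those of Tnfrsf18 if the counting ignored strand. Gm16008 itself was given 6 counts in the TNFR2-deficient group and 42 in the TNFR2-positive group.

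Tnfrsf4 (ENSMUSG00000029075) encodes OX40, which prolongs the survival of activated T cells and lies next to Tnfrsf18 on chromosome 4. The TNFR2-deficient group gave 5.19, 6.32 and 4.61 CPM, the TNFR2-positive group 23.9, 24.4 and 26.2 CPM. The 3 low libraries were again those labelled TNFR2-deficient, with the highest of them far under the lowest of the other group. The fall was 4.62-fold (log2 fold change -2.21, SE 0.112, edgeR adjusted p = 1.72e-08), less than that of its neighbour Tnfrsf18.

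Tnfrsf9 (ENSMUSG00000028965) encodes 4-1BB, a receptor induced by antigen that signals through TRAF1 and TRAF2. Its level was 2.16, 2.17 and 1.95 CPM with TNFR2 deficiency, against 22.2, 19.7 and 23.9 CPM in TNFR2-positive libraries. The TNFR2-deficient values were tight, with a coefficient of variation of 5.79%, and all were low. The fall was 10.5-fold (log2 fold change -3.39, SE 0.122, edgeR adjusted p = 1e-09), and 2.24% of all tested genes fell by as much or more. The log2 fold change of Tnfrsf1b, the labelled receptor, was -3.40, a difference of 0.01 from that of Tnfrsf9.

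Tnfrsf25 (ENSMUSG00000024793) encodes DR3, the member of the group that carries a death domain, binds TL1A and recruits the adaptor TRADD. TNFR2-deficient libraries stood at 1.82, 1.99 and 1.79 CPM and TNFR2-positive libraries at 10.3, 11.6 and 11.3 CPM. Values within each group were close together, and the groups were well apart. The fall was 5.92-fold (log2 fold change -2.57, SE 0.131, edgeR adjusted p = 1.75e-08).

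Tnfrsf14 (ENSMUSG00000042333) encodes HVEM, which binds the TNF ligand LIGHT as well as BTLA and CD160, receptors outside the family. Values of 4.76, 4.29 and 4.32 CPM in the TNFR2-deficient group compared with 21.6, 16.3 and 15.0 CPM in the TNFR2-positive group. TNFR2-positive library 1, the library that stood apart, was the high value here, and the spread in that group (coefficient of variation 19.9%) was the widest of the 8 genes in it. The fall was 3.96-fold (log2 fold change -1.98, SE 0.147, edgeR adjusted p = 3.93e-07), and the log2 fold change was -1.81 without TNFR2-positive library 1. Of the 1530 stretches of 50 bases in its GENCODE M21 transcripts, 69 also occur in transcripts of other genes.

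Tnfrsf8 (ENSMUSG00000028602) encodes CD30, a receptor of activated lymphocytes. Its levels were low in every library, at 2.42, 2.21 and 2.04 CPM in the TNFR2-deficient group and 3.21, 4.09 and 3.79 CPM in the TNFR2-positive group. The gap between the groups was small beside those of the receptors above. The fall was 1.66-fold (log2 fold change -0.73, SE 0.176, edgeR adjusted p = 0.00288).

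Tnfrsf26 (ENSMUSG00000045362) encodes TNFRH3, a mouse receptor little studied in T cells. The TNFR2-deficient group held 25.3, 25.8 and 22.4 CPM of it and the TNFR2-positive group 32.2, 33.3 and 30.5 CPM. The groups did not overlap, but the fall of 1.31-fold was the smallest of the 7 (log2 fold change -0.39, SE 0.0752, edgeR adjusted p = 0.000671). The annotation gives it 107 exonic bases in common with the antisense gene E230032D23Rik, which had 164 counts in the TNFR2-deficient group and 115 in the TNFR2-positive group (log2 fold change 0.41, edgeR adjusted p = 0.132).

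Cd27 (ENSMUSG00000030336) encodes the receptor of CD70, found on naive T cells, thymocytes and NK cells. Its transcripts reached 116.3, 135.0 and 123.6 CPM with TNFR2 deficiency, against 58.6, 61.3 and 61.7 CPM in TNFR2-positive libraries. Here the 3 TNFR2-deficient libraries were the high ones, with no overlap. The rise was 2.06-fold (log2 fold change 1.05, SE 0.0678, edgeR adjusted p = 1.33e-07), and 8.01% of all tested genes were called and rose at least 2-fold. In GENCODE M21 129 exonic bases of Cd27 are shared with the miRNA gene Mir8113 on the same strand. Of 9 pan T cell markers 7 rose in the same libraries, among them Trac by 0.56 and Cd3d by 0.99 on the log2 scale (edgeR adjusted p = 3.24e-06 and 6.48e-08). Cd5 fell (log2 fold change -0.39, edgeR adjusted p = 0.000117) and Cd2 was not called (-0.007, edgeR adjusted p = 0.935). Cd3d, Cd3e, Cd3g and Trac were all among the markers that rose. Scaled to their summed counts instead of TMM, the log2 fold change of Cd27 was 0.19 (edgeR adjusted p = 0.0162). That scaling moved the median of all tested genes by -0.85 and the share of calls that were higher from 50.7% to 6.53%, and on that scale the log2 fold changes of the other 7 receptors ran from -4.52 (Tnfrsf18) to -1.24 (Tnfrsf26).

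**Figure D2:**
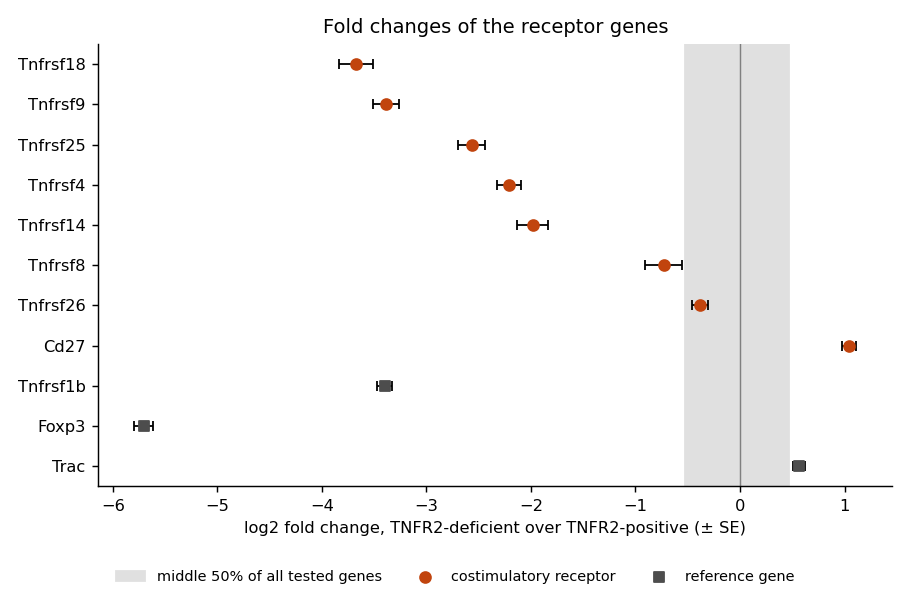
Log2 fold change of the 8 receptor genes (circles) and of Tnfrsf1b, Foxp3 and Trac (squares), with bars of 1 SE; the grey band holds the middle 50% of all tested genes. From Tnfrsf18 (-3.68) to Tnfrsf8 (-0.73) 6 genes lie to the left of the band, Tnfrsf26 (-0.39) lies within it and Cd27 (1.05) to its right.

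The order of the receptors differed between the groups when levels were set per kb of exon (lengths from GENCODE M21), which is the scale on which genes can be compared. In the TNFR2-positive libraries Cd27 was first at 26.0 ± 0.722 CPM per kb (mean ± SD, n = 3, as below), followed by Tnfrsf4 at 18.2 ± 0.889, Tnfrsf14 at 12.3 ± 2.44, Tnfrsf18 at 9.98 ± 1.18, Tnfrsf26 at 9.95 ± 0.435, Tnfrsf9 at 8.06 ± 0.781, Tnfrsf25 at 4.86 ± 0.299 and Tnfrsf8 at 1.07 ± 0.129. The ranges of Tnfrsf14 and Tnfrsf18, and those of Tnfrsf18 and Tnfrsf26, overlapped between libraries, while the other neighbours in this order did not. In the TNFR2-deficient libraries Cd27 was at 53.7 ± 4.04 CPM per kb and Tnfrsf26 came second at 7.62 ± 0.570. Tnfrsf4 followed at 3.94 ± 0.635 and Tnfrsf14 at 3.10 ± 0.182. Tnfrsf25, Tnfrsf18 and Tnfrsf9 stood close together at 0.818 ± 0.0469, 0.777 ± 0.158 and 0.769 ± 0.0446, with overlapping ranges between neighbours, and Tnfrsf8 was last at 0.643 ± 0.0557. Tnfrsf1b itself was at 21.7 ± 0.649 CPM per kb in the TNFR2-positive group, between Cd27 and Tnfrsf4, and at 2.06 ± 0.132 in the TNFR2-deficient group, between Tnfrsf14 and Tnfrsf25.

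The mix of receptor transcripts differed between the groups. Summed per kb, the 8 genes came to 71.3 ± 4.80 CPM per kb in the TNFR2-deficient libraries and 90.3 ± 0.217 in the TNFR2-positive ones. Cd27 made up 75.2% ± 1.44 of that sum in the former and 28.8% ± 0.777 in the latter. Without Cd27 the sum was 17.7 ± 1.28 against 64.3 ± 0.670 CPM per kb. Tnfrsf4 went from 20.1% ± 1.002 of the sum in the TNFR2-positive group to 5.50% ± 0.583, and Tnfrsf18 from 11.0% ± 1.28 to 1.08% ± 0.181, while Tnfrsf26 was at 11.0% ± 0.461 and 10.7% ± 0.805.

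**Figure D3:**
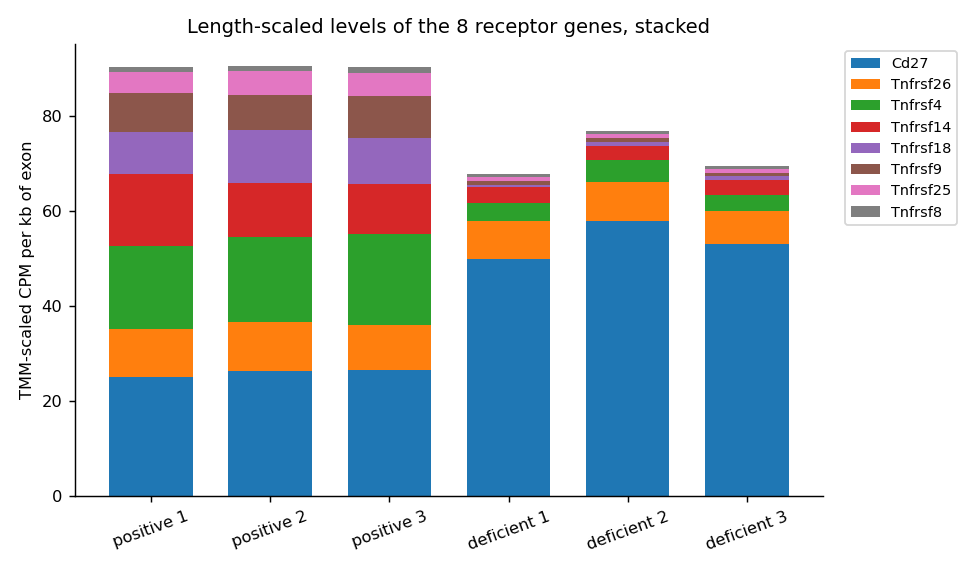
Stacked TMM-scaled CPM per kb of exon (vertical axis from 0) of the 8 receptor genes in each library. Cd27, the lowest segment, fills 25.2 to 26.5 of the 90.2 to 90.6 CPM per kb in the TNFR2-positive libraries and 49.97 to 57.98 of the 67.8 to 76.8 in the TNFR2-deficient ones, where the segments of Tnfrsf18, Tnfrsf9 and Tnfrsf25 are thin.

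Set against Tnfrsf1b in the same library, the receptors split, which restates how their fold changes compare with that of Tnfrsf1b, the labelled receptor. Per 100 counts of Tnfrsf1b, Tnfrsf9 had 26.0 to 27.1 counts in the TNFR2-deficient libraries and 23.4 to 29.8 in the TNFR2-positive ones, and Tnfrsf18 had 10.9 to 17.6 against 16.1 to 20.4, so the groups overlapped for these genes. For the other 6 genes the ratio was higher in every TNFR2-deficient library than in any TNFR2-positive one. Tnfrsf4 had 62.5 to 79.1 counts per 100 of Tnfrsf1b against 28.2 to 32.7, and Tnfrsf25 had 21.9 to 24.9 against 12.2 to 14.1. Foxp3 fell further than any of the receptors, with a log2 fold change of -5.70. Per 100 counts of Foxp3, Tnfrsf18 had 67.7 to 88.6 counts against 17.7 to 22.4 and Tnfrsf4 317.1 to 411.8 against 31.0 to 35.8, with only 31 to 35 Foxp3 counts in each TNFR2-deficient library behind the first of each pair. Per 100 counts of Trac, which encodes the constant part of the T cell receptor alpha chain, Tnfrsf18 had 0.443 to 0.637 counts against 9.53 to 12.1, and Cd27 had 56.8 to 63.5 against 41.1 to 44.3. Against Cd3e the groups overlapped for Cd27, at 66.4 to 77.7 and 65.6 to 67.4 counts per 100.

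Most of the receptor genes share a chromosome. In the RefSeq gene order of build GRCm38.p6, used for order only, 6 of the 8 lie on chromosome 4, where Tnfrsf8 is next to Tnfrsf1b and Tnfrsf4 next to Tnfrsf18, while Cd27 is on chromosome 6 and Tnfrsf26 on chromosome 7. The nearest tested protein-coding genes outside the group, 14 in all with Tnfrsf1b, did not share a direction: 7 were called lower, 3 higher and 4 were not called. The fall was at least 2-fold for 4. Both this count and the 7 called lower include Tnfrsf1b, the receptor that the groups are labelled by. Of all tested genes 34.2% were called lower, 35.1% higher, and 13.5% were called and at least 2-fold lower. Sdf4, beside the pair of Tnfrsf4 and Tnfrsf18, was at 181.5 ± 6.82 against 181.4 ± 5.93 CPM (log2 fold change 0.00, edgeR adjusted p = 0.992), and 9430015G10Rik on the other side of the pair had a log2 fold change of -0.20 (edgeR adjusted p = 0.025). The call of 9430015G10Rik was lost without each of TNFR2-deficient libraries 1 and 2 and TNFR2-positive libraries 2 and 3 (edgeR adjusted p = 0.0586 to 0.129). Park7, before Tnfrsf9, rose (log2 fold change 0.53), and Per3, after it, had a log2 fold change of -0.32 with an edgeR adjusted p of 0.0497, a call that was lost without each of the libraries other than TNFR2-positive library 3 (0.0517 to 0.165) and whose value turned to 0.10 with the relation to exonic length removed. Around Tnfrsf25, Plekhg5 rose (log2 fold change 0.49) and Espn fell by 1.62 on the log2 scale. Around Tnfrsf14, Prdm16 fell by 1.10 on the log2 scale and Hes5 rose (log2 fold change 1.49). Gm13212, near Tnfrsf8, fell by 0.61 on the log2 scale. Next to Tnfrsf26, Cars had a log2 fold change of -0.09 (edgeR adjusted p = 0.244), and the related receptor gene Tnfrsf22 fell by 1.01 on the log2 scale (edgeR adjusted p = 8.75e-06). Next to Cd27, Tapbpl had a log2 fold change of 0.05 and Tuba3a one of -0.25 (edgeR adjusted p = 0.491 and 0.458). With counts scaled to the T cell genes, Sdf4, Park7, Plekhg5, Tapbpl, Cars and Tuba3a were called lower, and the call of Hes5 was lost (log2 fold change 0.64, edgeR adjusted p = 0.0683). With the relation to exonic length removed, Sdf4 was called higher (log2 fold change 0.20, edgeR adjusted p = 0.00755), as was Cars (0.15, edgeR adjusted p = 0.0472).

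Genes with profiles most like those of Tnfrsf18 and Cd27, the receptors with the greatest fall and the rise, were sought among 9749 other protein-coding genes of at least 5 CPM by the Euclidean distance of mean-centred log2 CPM over the 6 libraries. With 2 groups of 3 libraries this measure mostly reads the size of the group difference. Nearest to Tnfrsf18 were Atf3, a stress-induced transcription factor (distance 0.295, log2 fold change -3.66), Art2b, a T cell surface ADP-ribosyltransferase (0.417, -3.46), and Tnfrsf1b (0.619, -3.40). Of the other receptors Tnfrsf9 ranked 6 in that order, Tnfrsf25 ranked 48, Tnfrsf4 ranked 99, Tnfrsf14 ranked 141, Tnfrsf26 ranked 2633 and Cd27 ranked 9333, and Tnfrsf8 was under the minimum level. Nearest to Cd27 were Lin37, a subunit of a cell cycle repressor complex (distance 0.0609, log2 fold change 1.01), Cd3d, a chain of the T cell receptor complex (0.113, 0.99), and the septin gene Sept1 (0.118, 1.03).

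Ligands of these receptors, which are made mainly by antigen-presenting cells and activated lymphocytes, did not share the direction of the receptors. Of 10 genes for ligands and counter-receptors, 8 were tested, of which 4 fell and 3 rose. Among all tested genes 34.2% were called lower and 35.1% higher. The median log2 fold change of the list was 0.07, against 0.04 for all tested genes. When counts were scaled to the T cell genes, no gene of the list was called higher, and Lta was on the lower side. Tnfsf8, the CD30 ligand, fell from 17.6 ± 2.55 to 3.11 ± 0.156 CPM (log2 fold change -2.50, edgeR adjusted p = 2.67e-08). Tnfsf4, the OX40 ligand, had 3, 2 and 10 counts in the TNFR2-deficient libraries and 20, 9 and 19 in the TNFR2-positive ones (log2 fold change -1.76, SE 0.512, edgeR adjusted p = 0.00892). Tnfsf9, the 4-1BB ligand, had 49, 52 and 57 counts against 19, 26 and 24 and rose (log2 fold change 1.07, edgeR adjusted p = 0.00167). Tnfsf18, the GITR ligand, had 29, 14 and 26 counts against 8, 14 and 11 (log2 fold change 0.93, edgeR adjusted p = 0.0427), a call that was lost without each of TNFR2-deficient libraries 1 and 3 and TNFR2-positive libraries 1 and 3 (0.0925 to 0.168) and with DESeq2 (0.101) and limma-voom (0.0527). Tnfsf14, which encodes LIGHT, had a log2 fold change of 0.42 (edgeR adjusted p = 0.0725), with a call gained without TNFR2-positive library 3 (0.0177). Cd70, the ligand of CD27, had 0 to 5 counts in every library and Tnfsf15, which encodes the DR3 ligand TL1A, 1 to 9, so neither was tested. Of the counter-receptors of HVEM, Btla, an inhibitory receptor of lymphocytes that is abundant on B cells, was at 651.5 ± 22.3 against 788.9 ± 55.1 CPM (log2 fold change -0.28, edgeR adjusted p = 0.00242), and Cd160 fell by 1.07 on the log2 scale (edgeR adjusted p = 3.23e-05). Lta, which encodes lymphotoxin alpha, rose (log2 fold change 0.56, edgeR adjusted p = 0.00126).

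Adaptors and kinases that carry the signal of the receptors to NF-kB were mostly lower, with a smaller median fall than the receptors. The list is named after them here and below, and also holds the ubiquitin ligases Birc2 and Birc3 and the NF-kB subunits Nfkb2 and Relb. Of its 14 genes 10 fell, Birc2, Birc3 and Relb among them, 1 rose and 3 did not pass the test. The shares called among all tested genes were 34.2% lower and 35.1% higher. The median log2 fold change of the list was -0.52, against -2.10 for the receptors. Tnfrsf8 and Tnfrsf26 fell by less than Traf3, Traf6 and Ikbkb did. Without TNFR2-positive library 1, 11 genes of the list fell. Nfkb2 gained a call there (log2 fold change -0.11, edgeR adjusted p = 0.0389, against -0.10 and 0.142 with all libraries). Traf3, an adaptor that holds back the alternative NF-kB pathway, fell from 132.1 ± 16.9 to 62.9 ± 2.80 CPM (log2 fold change -1.07, edgeR adjusted p = 8.25e-07). Traf6 fell by 0.83 and Ikbkb, a kinase of the canonical pathway, by 0.83 on the log2 scale (edgeR adjusted p = 1.43e-06 and 3.08e-07), but the log2 fold change of Ikbkb was -0.14 with the relation to exonic length removed (edgeR adjusted p = 0.0572). Tradd, the adaptor of DR3 and TNFR1, rose from 16.1 ± 2.44 to 26.2 ± 2.08 CPM (log2 fold change 0.70, edgeR adjusted p = 0.000121), and was at -0.15 when counts were scaled to the T cell genes.

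Other receptors of the superfamily did not share the direction of the costimulatory ones. Of 20 genes 16 were tested, of which 8 rose and 4 fell, with a median log2 fold change of 0.28. Among all tested genes 35.1% were called higher and 34.2% lower. When counts were scaled to the T cell genes, 2 of the list rose and 13 fell. Fas, a death receptor, and Tnfrsf1a, which encodes TNFR1, were the ones that stayed higher there, with log2 fold changes of 1.64 and 1.18 on the TMM scale (edgeR adjusted p = 3.3e-09 and 4.13e-08). Tnfrsf1b, the labelled receptor, was at 7.32 to 8.30 against 80.2 to 84.6 CPM. Beside it, Tnfrsf10b, a receptor of the death ligand TRAIL, fell by 0.99 and Tnfrsf22 by 1.01 on the log2 scale. Tnfrsf19 had a log2 fold change of -0.70 (edgeR adjusted p = 0.0354), a call lost without each of TNFR2-deficient library 1 and TNFR2-positive libraries 2 and 3 (0.0719 to 0.132) and with DESeq2 (0.0573).

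Costimulatory and inhibitory receptors of the immunoglobulin superfamily also held members that fell. The list is named after that superfamily here and below, and also holds Cd5 and Cd6, which belong to another family. Of its 10 genes 5 fell, Cd5 among them, 1 rose and 4, with Cd6, did not pass the test. The shares called among all tested genes were 34.2% lower and 35.1% higher. The median log2 fold change of the list was -0.28. When counts were scaled to the T cell genes, all 10 were called lower. Ctla4 fell from 102.3 ± 2.63 to 1.18 ± 0.173 CPM (log2 fold change -6.43), further than any of the TNF family receptors. Icos, a costimulatory receptor induced on activated T cells, fell by 2.44 and Cd226, a receptor of nectin-family ligands, by 2.44 on the log2 scale (edgeR adjusted p = 1.77e-09 and 4.5e-08). Cd28, the main costimulatory receptor of naive T cells, was at 57.3 ± 3.20 against 64.7 ± 9.81 CPM (log2 fold change -0.18, edgeR adjusted p = 0.115). It is outside the rule for named genes and was chosen after its values were seen. Slamf1, a self-binding receptor, rose (log2 fold change 0.28, edgeR adjusted p = 0.00265).

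**Figure D4:**
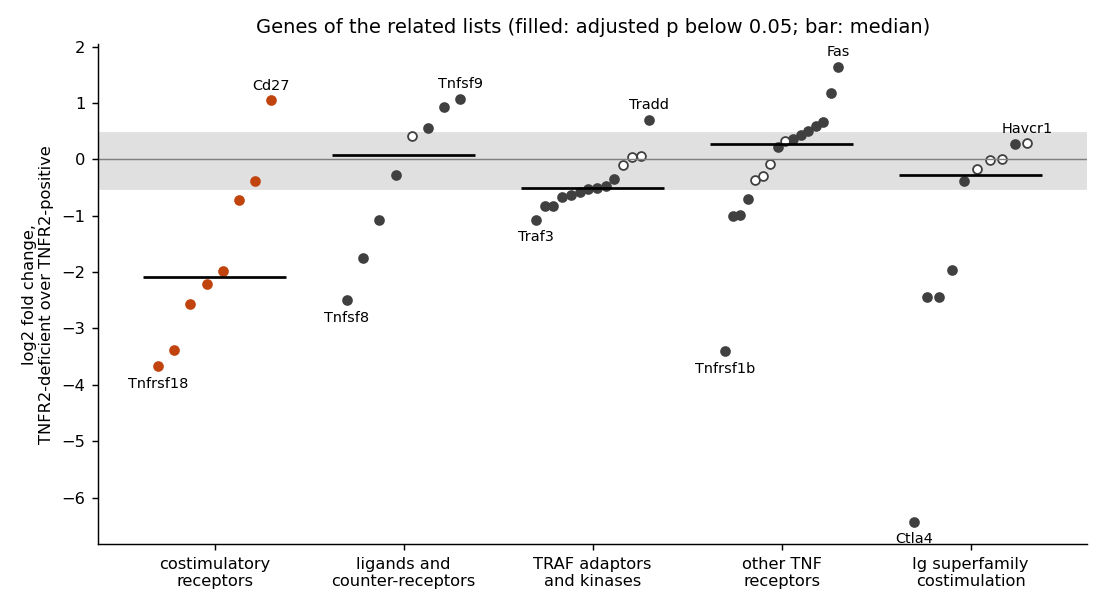
Log2 fold change of each tested gene of the receptor group (red) and of the 4 related lists (black); filled points passed an adjusted p-value of 0.05, bars are medians and the grey band holds the middle 50% of all tested genes. The receptor group has its median at -2.10, below those of the ligands (0.07), the adaptors and kinases (-0.52) and the other TNF receptors (0.28). It is also below that of the immunoglobulin superfamily list, which holds Cd5 and Cd6 as well (-0.28).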

How the data were processed

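Raw read counts per gene were analysed for 6 mouse RNA-seq libraries (oligo-dT captured mRNA, PCR-amplified, per the labels' protocols). The deposited values are whole-number counts that the authors did not normalize. HISAT2 2.1.0 and build GRCm39 are named per the submitters' processing notes, and the counting program, its annotation, its strand setting and its treatment of multiply placed reads were not given in the sources used here. Identifiers were given symbols from the gene name table (30529 of 32377), and lengths and overlaps came from GENCODE M21.

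Genes were filtered with filterByExpr, scaled by TMM and tested by glmQLFTest of edgeR 4.0.16 (R 4.3.3), with the group as the only factor, and p-values were adjusted over 17022 genes at a threshold of 0.05. DESeq2 1.42.0, limma-voom (limma 3.58.1), other scalings, filters and a replicate block were alternatives. The 8 receptor genes and the gene lists were chosen with earlier results of these data known. Named genes are the 8 receptors, Tnfrsf1b, Foxp3, Trac, the ligands, their nearest neighbours and most alike genes, and of each list the 3 smallest adjusted p and the members called against the list's main direction.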

Additional observations from a re-analysis of the deposited data

How the results depend on the processing

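Over 17 alternatives, 136 values of the 8 receptor genes were recomputed, of which 133 kept their direction and side of the threshold, 3 fell short of it and 0 turned direction. The 3 were tested against a minimum log2 fold change of 1: Tnfrsf8 (-0.73, adjusted p = 1), Tnfrsf26 (-0.39, adjusted p = 1) and Cd27 (1.05, edgeR adjusted p = 0.546). That test left 2198 genes called, 1434 lower and 764 higher, and 5 receptors lower and 0 higher. Among the lists it left 1 ligand lower and 0 higher, and 0 adaptors in either direction. It left 1 other TNF receptor lower and 2 higher, and 4 immunoglobulin superfamily receptors lower and 0 higher. Scaling to the T cell genes gave 13163 genes lower and 920 higher, with 0 ligands, 0 adaptors and 0 immunoglobulin superfamily receptors higher, 10 of the last lower, and 13 other TNF receptors lower and 2 higher. With the relation to exonic length removed, 2 adaptors and 2 immunoglobulin superfamily receptors were higher, and over leaving out each library the latter count was 1 to 2, with 2 without TNFR2-positive library 3. Leaving out each library gave 7 receptors lower and 1 higher every time, with log2 fold changes of -3.79 to -3.52 for Tnfrsf18 and 0.98 to 1.09 for Cd27. The replicate numbers did not pair the libraries: same-numbered libraries had correlations of deviations of 0.0372, 0.0540 and -0.0611, and not every library was most like its own number. The fit with the replicate number as a block called 11856 genes, and 7 receptors lower and 1 higher. With that block Cd28 was called lower (log2 fold change -0.17, edgeR adjusted p = 0.0419), which made 6 immunoglobulin superfamily receptors lower, and the calls of Tnfsf18 (0.0569) and Per3 (0.0642) were lost. Depth limits the low genes most, as Tnfrsf18 had 21 to 31 counts in each TNFR2-deficient library.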
